A study of Mus musculus with 3 samples.

Results

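Transcripts of 7 genes of the fetal growth programme, *Lin28a*, *Lin28b*, *Igf2bp1*, *Igf2bp2*, *Igf2bp3*, *Hmga2* and *Arid3a*, were followed across endothelial cells that had been sorted from adult mouse heart and cultured with embryonic stroma. The 7 genes were chosen by name from the 27,994 genes of the count table, and each was found under 1 Ensembl identifier. From the hearts of adult GFP+ mice, GFP+ cells with CD31 and VE-Cad on their surface and without CD41, CD45, PDGFRA and PDGFRB were sorted. They were either sequenced fresh (0 h) or after 24, 48, 72 and 96 h in co-aggregates with *Mesp1*(der) PSCs, which are DsRed+PDGFRA+ stromal cells of the aorta–gonad–mesonephros region of *Mesp1*–DsRed+ embryos at E11.5. After culture, GFP+CD31+VE-Cad+PDGFRA- cells were sorted again, so that the gate asked for GFP, which marked the adult cells. Whether DsRed+ embryonic cells also passed this gate was not tested. The medium held 20% fetal calf serum and 100 ng/ml each of IL-3, SCF and Flt3L. The time points were pooled, 3 pools were sequenced, and the comparison was made between the 7 clusters of cells in the deposited table, asking which of them carried the fetal genes.

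LIN28A and LIN28B are RNA-binding proteins that hold back the maturation of let-7 microRNAs in embryonic and fetal cells. The let-7 family in turn lowers mRNAs that carry matching sites in the 3′ untranslated region (UTR), among them those of *Lin28a*, *Lin28b*, *Hmga2* and the *Igf2bp* genes. IGF2BP1 to IGF2BP3 bind and stabilize mRNAs of growth genes such as *Igf2*, HMGA2 is a chromatin architectural protein that supports self-renewal of fetal haematopoietic stem cells, and ARID3A is a DNA-binding factor of B-lineage and fetal-type progenitors. The set is best known in blood for separating fetal from adult stem and progenitor cells.

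The mature let-7 sequences are shown because their seed (bases 2 to 8, in capitals) is what the sites in the 7 genes pair with. The RefSeq table (GRCm38.p6) listed 10 mouse let-7 miRNAs, and 9 of them shared 1 seed. Shown 5′ to 3′ are 4 of these 9, and let-7j as the exception.
let-7a-5p: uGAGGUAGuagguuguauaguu
let-7c-5p: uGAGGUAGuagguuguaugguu
let-7d-5p: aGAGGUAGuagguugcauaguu
let-7g-5p: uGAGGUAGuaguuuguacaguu
let-7j: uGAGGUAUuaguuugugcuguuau

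LIN28 proteins are known to bind a GGAG motif in the loop of let-7 precursors. The stretch between the 2 mature arms held GGAG in 9 of the 11 hairpins named *Mirlet7* in the table, against 8.22% of the 645 hairpins with both arms listed. The loci of let-7j and let-7k, named *Mir7j* and *Mir7k*, were not among the 11. GGAG was searched on the RNA strand only, and anywhere in the hairpin it was present in 44.5% of all 1,005 hairpins. Loops with the motif in capitals are shown for *Mirlet7a-1* (chr13:48538179-48538272, minus strand) and *Mirlet7g* (chr9:106178840-106178927, plus strand), and the loop of *Mirlet7b* (chr15:85707319-85707403, plus strand) is shown as one without it.
Mirlet7a-1 loop: uuagggucacacccaccacugGGAGauaa
Mirlet7g loop: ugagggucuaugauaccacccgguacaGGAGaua
Mirlet7b loop: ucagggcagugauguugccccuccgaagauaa

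All 7 genes had at least 1 match to the let-7 seed (CTACCTC, on the mRNA strand) in the longest annotated 3′ UTR of GENCODE release M21, where 9.02% of 21,020 genes did. Among the 10,241 genes with a 3′ UTR of at least 1,000 bases, a length that all 7 exceeded, 15.2% had a match. *Lin28b*, *Igf2bp1* and *Hmga2* had 4 matches each, a number reached by 12 genes in all. *Lin28a* and *Arid3a* had 2 matches each, and *Igf2bp2* and *Igf2bp3* had 1. Since several of these genes are known for let-7 regulation, the matches describe the set and are no finding on it. One site per gene is shown, 5′ to 3′ on the mRNA strand of GRCm38, with the match in capitals.
Lin28a, chr4:134005186-134005207: agcctgttgaaCTACCTCattt
Lin28b, chr10:45381019-45381040: gggcgggaagtCTACCTCatgc
Igf2bp1, chr11:95961775-95961796: tgcgaagtaaaCTACCTCaagg
Igf2bp2, chr16:22059470-22059491: acaaataaaagCTACCTCaggt
Igf2bp3, chr6:49086784-49086805: tttttactcaaCTACCTCaggt
Hmga2, chr10:120364221-120364242: acattcaatttCTACCTCagca
Arid3a, chr10:79953899-79953920: caagtttctttCTACCTCaggt
The first 6 genes lie on the minus strand and *Arid3a* on the plus strand. Mature let-7 is too short to be captured by this assay, which reads polyadenylated RNA from its 3′ end, and none of the 3 let-7 host transcripts looked for was found by name in the count table.

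The table held 3,507, 3,958 and 2,097 cells in the libraries with suffix 1, 2 and 3, with 252,339,042 unique molecular identifiers (UMIs, each standing for 1 captured RNA molecule). Barcodes carried 1 of 3 library suffixes, but neither the pool of a suffix nor the time point of a cell was known, so all cells were treated as 1 sample and no test was run. A level is the number of UMIs of a gene per 10,000 UMIs of the group of cells, with an exact 95% Poisson interval. Ratios have exact conditional binomial intervals, shares of cells exact (Clopper–Pearson) intervals, and all of them cover counting error only. A gene was called higher or lower between clusters at a ratio of at least 2-fold with the same direction in all 3 libraries, among genes with at least 50 UMIs in both groups together. The clusters had been made from these same counts, so that a difference between them describes the clusters. Median depth ran from 7,875 UMIs per cell in cluster 1 to 36,065.5 in cluster 5, and 13 barcodes occurred in more than 1 library.

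Clusters 0, 1 and 2 held the endothelial cells by their markers (*Cdh5*, *Pecam1*, *Kdr*, *Egfl7* and *Emcn*), which summed to 29.3 to 40.5 UMIs per 10,000 there and to 3.29 to 5.24 in clusters 3 to 6. Although all cells had passed a gate on CD31 and VE-Cad, all 5 endothelial genes were called lower in each of clusters 3, 4, 5 and 6 than in clusters 0 to 2. Cluster 0 had arterial genes such as *Gja5*, cluster 3 germ and pluripotency genes such as *Dppa5a*, cluster 4 stromal and epithelial genes (*Col1a1*, *Krt8*), cluster 5 macrophage and granulocyte genes (*C1qb*, *Mpo*) and cluster 6 megakaryocyte genes (*Pf4*). Cluster 1 stood apart among the endothelial clusters by the genes of adult heart capillaries, which take up fatty acids. *Fabp4*, a fatty-acid carrier, was at 65.0 UMIs per 10,000 in cluster 1 and at 0.728 to 1.8 elsewhere.

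The main pattern across the clusters was the low level of all 7 fetal genes in cluster 1. Summed over the 7 genes, cluster 1 had 1.59 UMIs per 10,000, with 1.41, 2.26 and 1.38 in library suffixes 1, 2 and 3. The next lowest was cluster 6 at 3.49, followed by cluster 3 at 4.04, cluster 5 at 6.75, cluster 2 at 8.89, cluster 0 at 9.95 and cluster 4 at 13.0. The lowest library value outside cluster 1 was 2.93, in cluster 6, so the library sums of cluster 1 lay below those of every other cluster. Single cells overlapped, as the 90th percentile of the sum was 3.425 in cluster 1 and the median 3.026 in cluster 6. In the sum, the other endothelial clusters, 0 and 2, thus lay between the stromal cluster 4 and the blood clusters 5 and 6. *Hmga2* gave the largest part of the sum in clusters 4, 0 and 2, at 6.65, 4.79 and 3.43. Taken singly over all cells, *Lin28a*, *Igf2bp1*, *Igf2bp2* and *Hmga2* had clusters 0 and 2 in this place. *Lin28b*, *Igf2bp3* and *Arid3a* did not, with *Lin28b* in cluster 0 at 0.140, below clusters 4, 5 and 6. Library suffix 2 had the highest sum in every cluster, and a list of 13 let-7 processing genes was also highest in that library in all 7 clusters.

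**Figure D1:**
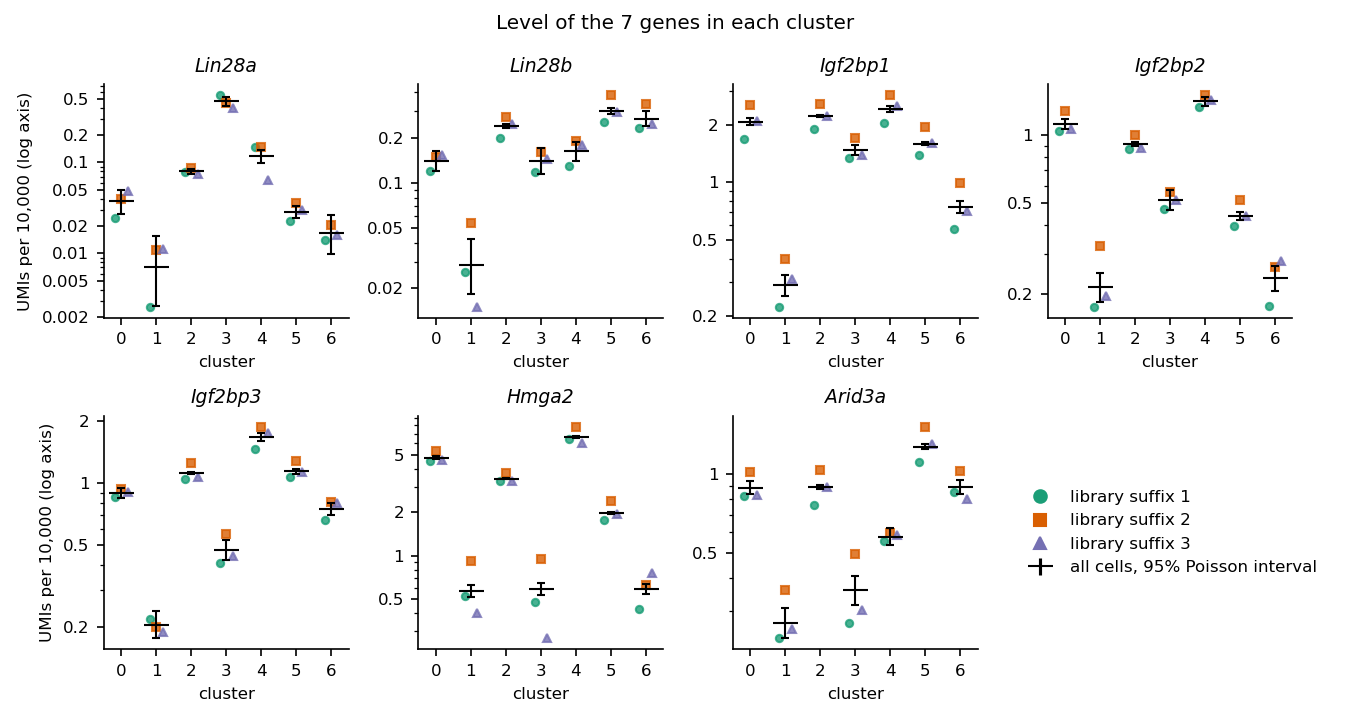
Level of each of the 7 genes in UMIs per 10,000 (log axis) against the cluster number. Black bars give all cells of a cluster with the 95% Poisson interval and coloured points give the 3 libraries. Cluster 1 is lowest over all cells for each gene, *Lin28a* peaks in cluster 3, *Lin28b* and *Arid3a* in cluster 5, and the other 4 genes in cluster 4.

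*Lin28a*, on chromosome 4 (GRCm38 chr4:134003330-134018841), encodes the LIN28 protein typical of pluripotent and germ cells. It stood at 0.472 UMIs per 10,000 in cluster 3 (0.423–0.526), with 0.551, 0.446 and 0.395 in the 3 libraries. Cluster 4 followed at 0.117 (0.0987–0.139) and cluster 2 at 0.0796 (0.0750–0.0844), where the libraries had 0.0794, 0.0865 and 0.0738. The germ and pluripotency cluster was therefore above every other cluster in all 3 libraries, and 4.02 times above the second. Clusters 0, 5 and 6 had 0.0373, 0.0283 and 0.0167, with overlapping intervals between neighbours in that order. In cluster 1 only 6 *Lin28a* UMIs were counted, a level of 0.00713 (0.00262–0.0155), whose interval overlapped that of cluster 6.

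The level of *Lin28a* in cluster 2 was 16.9% of that in cluster 3, while *Dppa5a*, the leading gene of cluster 3, was in cluster 2 at 0.0751% of its level there. In cluster 4 the corresponding percentages were 24.9% and 0.0516%, and in cluster 1 they were 1.51% and 0.0629%. The level of *Lin28a* outside cluster 3 thus did not follow that of *Dppa5a*.

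*Lin28b* (chr10:45376620-45486395), the paralogue known from fetal liver blood cells, had a different order. It was highest in cluster 5 at 0.299 UMIs per 10,000 (0.285–0.313), with 0.254, 0.383 and 0.295 in the 3 libraries. Cluster 6 at 0.267 (0.237–0.300) and cluster 2 at 0.238 (0.230–0.247) came next. Clusters 5 and 6 did not differ beyond their intervals, nor did clusters 6 and 2. Clusters 4, 3 and 0 had 0.162, 0.140 and 0.140, also with overlapping intervals, and cluster 1 had 0.0285 (0.0183–0.0425) from 24 UMIs. *Lin28b* was thus present in blood, stromal and germ-type clusters, over a 10.5-fold range from cluster 5 to cluster 1. *Lin28a* spanned a 66.2-fold range from cluster 3 to the 6 UMIs of cluster 1, or 38.3-fold without library suffix 1.

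The 3 *Igf2bp* genes, whose proteins bind mRNA in the cytoplasm, all had their highest level in cluster 4 in each library. *Igf2bp1* (chr11:95957163-96005940) stood at 2.41 UMIs per 10,000 in cluster 4 (2.32–2.5), followed by cluster 2 at 2.22 (2.19–2.24) and cluster 0 at 2.07 (1.99–2.15). Its libraries in cluster 2 were at 1.90, 2.57 and 2.21, so that these 3 clusters overlapped when values were compared across libraries. Within each library cluster 4 was above cluster 2, and cluster 2 above cluster 0. Clusters 4 and 0 had 2.03 and 1.68 in suffix 1, 2.85 and 2.53 in suffix 2, and 2.51 and 2.08 in suffix 3. Clusters 5 and 3 had 1.59 and 1.48 with overlapping intervals, cluster 6 had 0.745 (0.694–0.798) and cluster 1 had 0.290 (0.255–0.329), with 0.223, 0.399 and 0.312 in its libraries. No library of cluster 1 reached the lowest library of any other cluster, which was 0.573 in cluster 6.

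*Igf2bp2* (chr16:22059009-22163299), the member that adult tissues also express, fell more steeply towards the blood clusters. Its level was 1.41 in cluster 4 (1.35–1.48), before cluster 0 with 1.12 (1.07–1.18) and cluster 2 with 0.913 (0.897–0.929). Clusters 3 and 5 had 0.517 and 0.440, cluster 6 had 0.234 (0.206–0.265) and cluster 1 had 0.214 (0.184–0.248). Clusters 6 and 1 overlapped, and in library suffix 2 the order was turned, with 0.263 in cluster 6 and 0.323 in cluster 1. *Igf2bp3* (chr6:49085223-49214957), known as an oncofetal gene, had 1.67 in cluster 4 (1.60–1.75), before cluster 5 with 1.14 (1.11–1.17) and cluster 2 with 1.12 (1.10–1.14). Clusters 0, 6 and 3 had 0.895, 0.747 and 0.474, and cluster 1 had 0.204 (0.175–0.237), with 0.218, 0.199 and 0.188 in its libraries. Unlike *Igf2bp2*, *Igf2bp3* was as high in the blood cluster 5 as in the endothelial cluster 2.

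*Hmga2* (chr10:120361275-120476469) had its highest level in cluster 4, at 6.65 UMIs per 10,000 (6.5–6.8), followed by cluster 0 at 4.79 (4.67–4.92) and cluster 2 at 3.43 (3.40–3.46). The libraries of cluster 0 were at 4.51, 5.29 and 4.64 and those of cluster 2 at 3.29, 3.76 and 3.27, so that the arterial cluster lay above cluster 2 in every library. Cluster 5 had 1.98 (1.95–2.02). Clusters 3, 6 and 1 formed a low group at 0.591, 0.585 and 0.571 with overlapping intervals, and the lowest library value among them was 0.267, in cluster 3. Cluster 1 was the lowest of all clusters for *Hmga2* in none of the 3 libraries.

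*Arid3a* (chr10:79927043-79955018) was highest in cluster 5, at 1.27 UMIs per 10,000 (1.24–1.30), with 1.11, 1.52 and 1.30 in the libraries. Clusters 2, 6 and 0 had 0.894, 0.892 and 0.887 and did not differ beyond their intervals. Clusters 4 and 3 had 0.577 and 0.360, and cluster 1 had 0.270 (0.236–0.307). *Arid3a* had the narrowest range of the 7 genes, 4.71-fold between clusters 5 and 1, and it was the only one of them lower in cluster 4 than in both clusters 0 and 2.

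Cluster 1 was compared with cluster 2, the largest endothelial cluster. All 7 genes were called lower in cluster 1, where 12.8% of 13,269 genes were called lower and 20.3% higher. The median log2 ratio was -2.59 over the 7 genes and 0.10 over all genes tested. *Lin28a* had a log2 ratio of -3.48 (-4.93 to -2.35), *Lin28b* of -3.06 (-3.71 to -2.49) and *Igf2bp1* of -2.93 (-3.12 to -2.75). For *Hmga2* it was -2.59 (-2.72 to -2.46), a 6.01-fold lower level. The least lowered was *Arid3a* at -1.73 (-1.92 to -1.54), or 3.31-fold. When the 100 most abundant genes were left out of the scaling, the median of all genes moved by -0.12 to -0.03 and all 7 genes were still called.

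Other genes moved between clusters 1 and 2 as well, and their part in the difference was not tested. The cell-cycle genes *Mki67* and *Top2a* were both called lower in cluster 1, at a summed level of 1.12 against 6.15 UMIs per 10,000. All 5 macrophage genes were called higher, at a sum of 3.12 (0.744 to 4.41 over the libraries) against 0.0766, and *C1qb* reached 17.0% of its level in cluster 5. A UMI of these 5 genes was found at 5,000 UMIs per cell in 12.3% of cluster 1 and 4.74% of cluster 2. Of the stromal genes 2 of 6 were called higher in cluster 1 (*Dcn*, log2 ratio 5.87, and *Postn*, 2.26), at a sum of 2.57 against 0.159. Single genes of other blood cells were higher too, with *S100a8* of granulocytes at 5.45, *Pf4* of megakaryocytes at 3.51 and the adult globin gene *Hba-a1* at 4.20. Without the cells with a macrophage UMI, a comparison added after the data were seen, 653 cells of cluster 1 and 5,122 of cluster 2 remained and all 7 genes were still called lower, with *Hmga2* at -2.55 (-2.70 to -2.41) and *Arid3a* at -1.88 (-2.11 to -1.66). Depth per cell was also lower in cluster 1, and the levels used here are scaled by it.

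**Figure D2:**
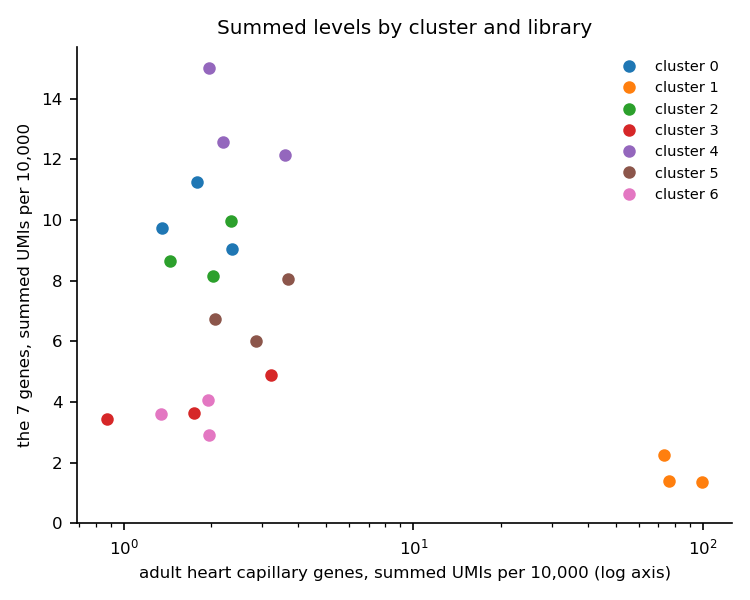
Summed level of the 7 fetal genes against the summed level of 5 adult heart capillary genes (*Cd36*, *Fabp4*, *Gpihbp1*, *Lpl* and *Aqp1*; log axis), both in UMIs per 10,000, for each cluster in each of the 3 libraries. The 3 points of cluster 1 lie at 73.1 to 99.3 on the capillary axis and at 1.38 to 2.26 on the fetal axis, apart from all others.

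The capillary genes varied in the opposite direction to the fetal ones. All 5 were called higher in cluster 1 than in cluster 2, and their sum was 82.8 UMIs per 10,000 in cluster 1 and 1.79 to 2.78 in the other clusters. Outside cluster 1 the 2 sums did not follow each other, as the points for clusters 0 and 2 to 6 show, where the fetal sum ran from 2.93 to 15 at capillary sums of 0.875 to 3.69. Within cluster 1, in a split added after the data were seen, cells were divided at the median of 27 capillary UMIs among 5,000. The 366 cells above it had less *Igf2bp1* (0.0984 against 0.253 UMIs per 10,000), *Igf2bp2* (0.0656 against 0.259) and *Hmga2* (0.246 against 0.633) than the 379 cells at or below it, in each of the 3 libraries. The log2 ratios were -1.37 (-2.23 to -0.56), -1.98 (-3.03 to -1.05) and -1.37 (-1.89 to -0.86). *Igf2bp3* was also lower in each library, with a log2 ratio of -0.79 (-1.58 to -0.04). *Lin28b*, with 4 and 6 UMIs, had an interval that held 0, and *Lin28a* had 2 and 0 UMIs. *Arid3a* had 0.191 against 0.222 with an interval that held 0 (-0.90 to 0.47), so that no difference could be told for this member.

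Cluster 0, with the arterial genes, was also compared with cluster 2. One member was called lower (*Lin28a*, log2 ratio -1.09, -1.55 to -0.67) where 5.19% of 13,144 genes were, and 0 were called higher where 11.9% were. The ratio of *Lin28a* was -1.68, -1.14 and -0.60 in the 3 libraries and -0.85 without suffix 1, so that the call rested on that library. *Hmga2* was 1.40-fold higher (log2 ratio 0.48, 0.44 to 0.52) and *Lin28b* 1.71-fold lower, both in every library and both short of the threshold. *Igf2bp1* and *Arid3a* had log2 ratios of -0.10 and -0.01. Clusters 0 and 2 were thus closer to each other in the fetal genes than either was to cluster 1.

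Cluster 3, with germ and pluripotency genes, was set against the endothelial clusters 0, 1 and 2 together. *Lin28a* was called higher, by 6.51-fold (log2 ratio 2.70, 2.52 to 2.88), among 13.4% of 13,831 genes. *Igf2bp3* (-1.16), *Hmga2* (-2.52, -2.66 to -2.38) and *Arid3a* (-1.26) were called lower, where 26.1% of the genes were, and *Lin28b*, *Igf2bp1* and *Igf2bp2* lay between -0.79 and -0.51. In this cluster *Lin28a* was above its level in the summed reference while *Hmga2*, which shares the let-7 sites, was 5.73-fold below its own. Cluster 1 alone was not higher than cluster 3 in the genes called lower. *Hmga2* had 0.591 in cluster 3 and 0.571 in cluster 1, *Igf2bp3* 0.474 and 0.204, and *Arid3a* 0.360 and 0.270. The scaling without the 100 most abundant genes moved the median of all genes from -0.18 to -0.08 here, and the same number of members was called.

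In cluster 4, with stromal genes, 0 of the 7 members were called in either direction, against 18.6% of 14,119 genes called higher and 8.9% called lower. *Hmga2* lay closest to the threshold at 1.96-fold higher (log2 ratio 0.97, 0.94 to 1.01), with 1.02, 1.06 and 0.90 in the libraries. It was called without library suffix 3 (log2 ratio 1.02) and without the 5% of cells with the most UMIs (1.01). *Igf2bp2* and *Igf2bp3* were both 1.58-fold higher, in each library, and *Arid3a* was 1.49-fold lower. The stromal cluster thus had the highest level of 4 members, by less than 2-fold over the summed clusters 0, 1 and 2. Most UMIs of that reference came from cluster 2. Against cluster 1 alone, the level in cluster 4 was 6.60-fold higher for *Igf2bp2* and 11.7-fold higher for *Hmga2*, the smallest and largest ratio of the 4.

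**Figure D3:**
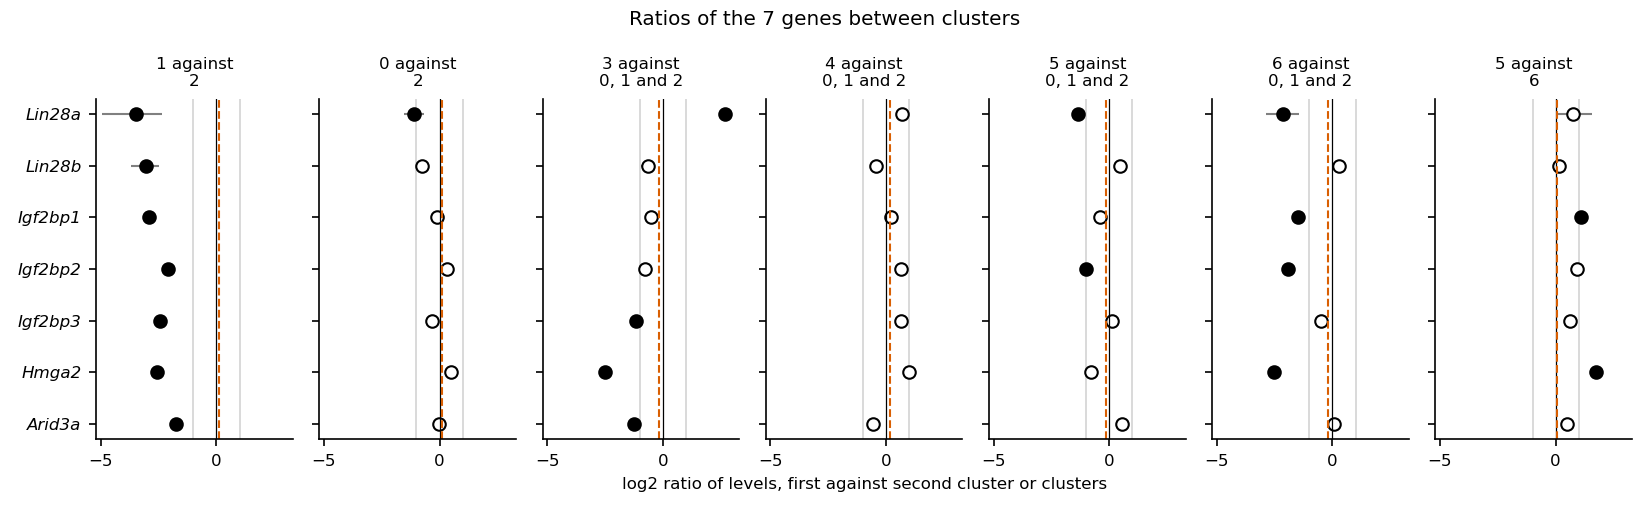
Log2 ratios of the 7 genes between clusters, 1 panel per comparison, with 95% intervals for counting error (grey). Filled points are called and open points are not, the dashed line is the median of all genes tested and light lines mark 2-fold. All 7 points are filled in the panel of cluster 1 against 2, and none is in that of cluster 4.

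The members did not move as a block in the blood clusters. In cluster 5, with macrophage and granulocyte genes, *Lin28a* (log2 ratio -1.36, -1.60 to -1.13) and *Igf2bp2* (-1.02, -1.08 to -0.96) were called lower, where 22.8% of 14,199 genes were, and 0 members were called higher where 12.1% were. Short of the threshold but in the same direction in every library, *Hmga2* was 1.71-fold and *Igf2bp1* 1.32-fold lower, and *Arid3a* was 1.48-fold and *Lin28b* 1.36-fold higher. The call of *Igf2bp2* was lost with log2 ratios of -0.97 without library suffix 1, -0.96 under the other scaling and -0.98 without the 5% of cells with the most UMIs. In cluster 6, with megakaryocyte genes, 4 members were called lower, where 24.1% of 13,701 genes were, and 0 higher where 10.1% were. These were *Hmga2* (-2.53, -2.65 to -2.42), *Lin28a* (-2.12), *Igf2bp2* (-1.93) and *Igf2bp1* (-1.50). *Lin28b* and *Arid3a* stood at 0.28 and 0.05.

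Directly compared, cluster 5 had more *Hmga2* (3.39-fold, log2 ratio 1.76, 1.65 to 1.88) and *Igf2bp1* (2.13-fold, 1.09, 0.99 to 1.20) than cluster 6. These 2 calls stood against 13.2% of 12,357 genes called higher, and 0 members were called lower where 8.67% were. *Igf2bp2* lay just below the threshold (0.91), and was called without library suffix 3 (1.03). For *Lin28b* the interval held 0 (-0.02 to 0.34). All 7 genes had a ratio above 0 in each of the 3 libraries, at a median log2 of 0.76 against 0.06 over all genes.

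The members were next counted in single cells at a common depth, by drawing 5,000 UMIs from each cell, which left out 90 shallower cells. None of the 7 genes was detected in 66.2% of the 745 cells of cluster 1 (62.7–69.6%), with 65.5%, 57.0% and 74.5% in the libraries. In the other endothelial clusters the share was 1.8% (cluster 0) and 2.06% (cluster 2), and in clusters 3, 4, 5 and 6 it was 13.8%, 3.52%, 9.18% and 20.7%. At least 4 of the 7 genes were detected in 1.21% of the cells of cluster 1 (0.554–2.28%), 24.9% of those of cluster 2 and 30.5% of those of cluster 4. Most cells of cluster 1 thus showed no fetal gene at a depth at which nearly all cells of clusters 0 and 2 showed at least 1, and a cell without a UMI may still hold transcripts.

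**Figure D4:**
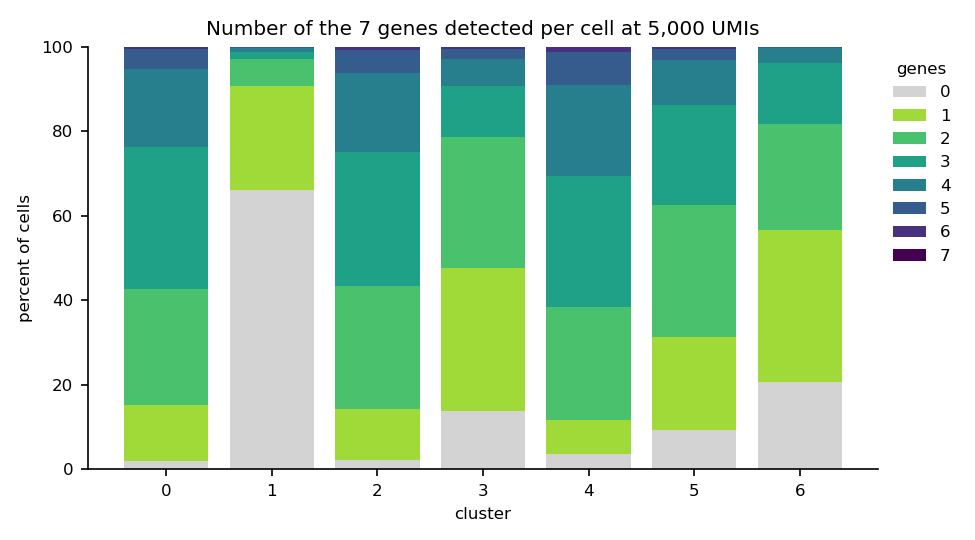
Stacked bars of the percent of cells in each cluster in which 0 to 7 of the genes were detected after 5,000 UMIs had been drawn from each cell. The grey part, cells with none, takes 66.2% in cluster 1 and 1.8% to 20.7% in the other clusters.

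Before thinning, with cells called positive above 0.5 UMIs per 10,000, *Igf2bp1* was positive in 92.6% of the cells of cluster 2 (91.8–93.2%) and 10.1% of cluster 1 (8.13–12.4%), at median depths of 22,493 and 7,875 UMIs. Thinned to 5,000 UMIs, these shares became 65.9% and 6.98%. For *Hmga2*, clusters 0, 2 and 1 had 96.4%, 95.3% and 20.8% positive cells before thinning and 84.5%, 77.1% and 14.5% at the common depth. *Lin28a* was positive in 38.1% of the cells of cluster 3 (31.9–44.6%), against 0.375% to 9.85% in the other clusters. No cluster is known to lack these genes, so cluster 1 gives the lowest share seen, which at the common depth ran from 0.268% for *Lin28a* to 14.5% for *Hmga2*. The order of clusters 0 to 2 was the same with and without thinning for *Igf2bp1* and *Hmga2*.

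In cluster 1, *Hmga2* was found more often in cells with *Igf2bp1* or *Igf2bp2* than in cells without them. It was detected in 44.2% of the 52 cells with *Igf2bp1* (30.5–58.7%) and in 12.3% of the 693 cells without it (9.92–14.9%). It was also found in 39.2% of the 51 cells with *Igf2bp2* (25.8–53.9%) and 12.7% of those without (10.3–15.4%). For *Arid3a* the intervals overlapped, with *Hmga2* in 20.5% of the 73 cells with it (12–31.6%) and 13.8% of those without (11.3–16.7%). Whether this pair shared cells could not be told from so few cells. In cluster 2, where most cells had both, the corresponding shares for *Igf2bp1* were 78.5% and 74.4%. Cells of cluster 1 with a UMI of *Mki67* or *Top2a* were also compared with cells with neither. Those with a UMI had more *Igf2bp1* (log2 ratio 2.27, 1.53 to 3.01), *Igf2bp3* (1.14, 0.32 to 1.91) and *Hmga2* (1.11, 0.60 to 1.60), in all 3 libraries. The intervals of *Lin28a*, *Lin28b*, *Igf2bp2* and *Arid3a* held 0. In cluster 2 the same split gave 0.15 for *Igf2bp1* and 0.17 for *Hmga2*, and its largest ratio was 0.70 for *Lin28a* (0.17 to 1.27).

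Cluster 5 held cells of different kinds, and the members were not spread evenly over them. At 5,000 UMIs, 326 cells had *Mpo*, a granulocyte enzyme, but not *C1qb*, 696 had *C1qb*, a macrophage complement gene, but not *Mpo*, 504 had neither and 42 had both. *Hmga2* stood at 3.41 UMIs per 10,000 in the cells with *Mpo* (3.13–3.7) and 3.58 in those with neither (3.35–3.83), but at 0.575 in those with *C1qb* (0.498–0.660). The libraries had 3.32, 3.61 and 3.21 with *Mpo*, and 0.304, 0.938 and 0.336 with *C1qb*, so that the library levels did not overlap. Single cells did, as *Hmga2* was detected in 62.6% of the cells with *Mpo* and 19.3% of those with *C1qb*. The log2 ratio was 2.57 (2.33 to 2.81) and 2.45 with at least 2 UMIs of the sorting gene.

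*Igf2bp2* divided in the same direction, with 0.620 in cells with *Mpo* and 0.247 in cells with *C1qb* (log2 ratio 1.33, 0.90 to 1.76, and 0.80 with at least 2 UMIs). *Igf2bp1* did not, at 1.53 and 1.57 (log2 ratio -0.04, -0.26 to 0.18). *Igf2bp3* was slightly lower with *Mpo*, at 1.06 against 1.33 (-0.32, -0.58 to -0.06), and *Arid3a* stood at 1.25 and 1.5 (-0.27, -0.51 to -0.03, and -0.20 with an interval that held 0 with at least 2 UMIs). *Lin28b* had 0.368 and 0.247, but its ratio changed sign in library suffix 3. In the cells with neither gene, *Igf2bp3* (0.845, 0.736–0.967) and *Arid3a* (1.14, 1.01–1.28) were also below their levels in the cells with *C1qb*. The cells with *C1qb* thus had *Hmga2* near the level of clusters 1, 3 and 6, *Igf2bp3* and *Arid3a* above the cells with *Mpo* only or neither, and *Igf2bp1* within the intervals of the other cells.

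**Figure D5:**
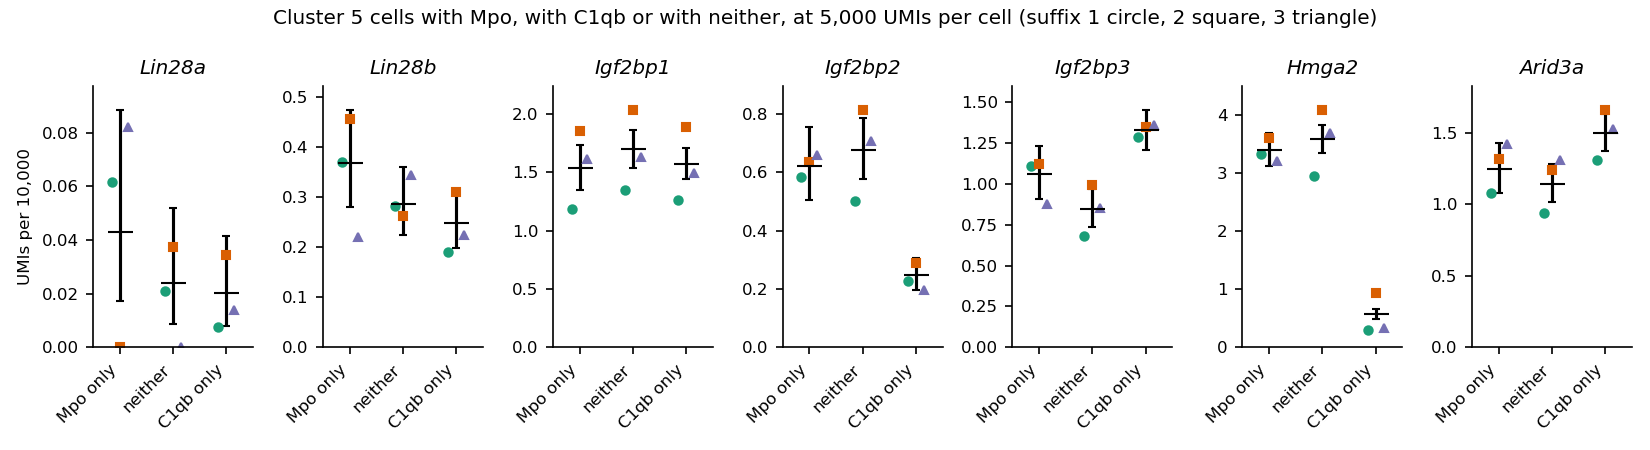
Level of each of the 7 genes in UMIs per 10,000 within cluster 5, in cells with *Mpo* only (n = 326), neither gene (n = 504) and *C1qb* only (n = 696), at 5,000 UMIs per cell. Bars are 95% Poisson intervals and points the 3 libraries. *Hmga2* and *Igf2bp2* are lower in the cells with *C1qb*, and *Igf2bp1* is not.

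Within cluster 0, 53 cells had *Runx1*, the factor required for blood formation from endothelium, at 5,000 UMIs, and 669 did not. *Hmga2* stood at 7.06 UMIs per 10,000 (6.08–8.14) with *Runx1* and 4.51 (4.28–4.74) without, a log2 ratio of 0.65 (0.42 to 0.87). *Igf2bp1* had 3.32 against 1.97 (0.75, 0.42 to 1.08) and *Igf2bp2* 1.89 against 1.1 (0.78, 0.32 to 1.21). All 3 were higher with *Runx1* in each library, whereas *Igf2bp3* (0.07) and *Arid3a* (0.06) had intervals that held 0. With at least 2 *Runx1* UMIs, *Igf2bp1* had 1.06 (0.60 to 1.49), *Hmga2* 0.58 (0.23 to 0.91) and *Igf2bp2* 0.60 with an interval that held 0 (-0.15 to 1.26). Median depth before thinning was higher in the cells with *Runx1*, at 19,980 against 13,940 UMIs. In cluster 2, *Igf2bp1* and *Hmga2* had ratios of -0.02 (-0.38 to 0.31) and 0.12 (-0.16 to 0.38) in the same split. *Lin28b* had 1.08 there (0.26 to 1.79) from 16 UMIs with *Runx1*, but -0.11 in library suffix 1. In cluster 1, 35 cells had *Runx1*, and *Igf2bp2* had 1.61 (0.33 to 2.70) from 8 UMIs, with 0 in library suffix 3. The intervals of the other members held 0 in both clusters.

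Other genes of the pathway were taken from fixed lists. Of 20 further let-7 targets, 14 had a seed match in the 3′ UTR. Between clusters 1 and 2, 6 of the 20 were called lower and 2 higher, with a median of -0.31 over the list, beside 12.8% and 20.3% of all genes. *Trim71*, an RNA-binding ubiquitin ligase of early embryos, had the largest decrease (log2 ratio -3.26), followed by *Igdcc3* (-2.74), *E2f2* (-2.34) and *Cdc25a* (-1.38), while *Irs2* (4.20) and *Insr* (1.09), both of insulin signalling, were called higher. The level of *Trim71* was 1.01 UMIs per 10,000 in cluster 3, against 0.512 and 0.0535 in clusters 2 and 1. In cluster 3 against clusters 0 to 2, 4 of the 20 were called higher and 8 lower, where 13.4% and 26.1% of all genes were. In cluster 4 the counts were 3 and 0 (18.6% and 8.9% of all genes), in cluster 5 they were 4 and 3 (12.1% and 22.8%) and in cluster 6 they were 1 and 4 (10.1% and 24.1%). Calls of further targets were thus made in both directions in all of these comparisons but that of cluster 4.

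Of 13 genes for let-7 processing, 2 were called lower in cluster 1 than in cluster 2 (*Tarbp2*, -1.18, and *Prkra*, -1.12, both partners of Dicer) and 2 higher (*Trim25*, 1.42, a cofactor of LIN28A, and the terminal uridylyltransferase *Tut7*, 1.09), counts that lay near the 12.8% and 20.3% of all genes. In cluster 3, *Dgcr8*, the partner of Drosha, was called higher (1.55) together with *Xpo5* (1.27), which exports precursors from the nucleus. *Prkra* was called lower there (-2.36), where 13.4% of all genes were called higher and 26.1% lower. In cluster 4, *Tut4* was called higher (1.07) and *Trim25* lower (-2.54), beside 18.6% and 8.9% of all genes. In cluster 5, *Prkra* was called lower (-1.14) and 0 higher, beside 22.8% and 12.1%. In clusters 0 and 6 none of the 13 was called. Of all genes, 11.9% and 10.1% were called higher there, and 5.19% and 24.1% lower. *Dicer1* was at 0.410 UMIs per 10,000 in cluster 1 and 0.519 to 0.940 elsewhere.

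Of 8 mRNAs known to be bound by IGF2BP proteins, 7 could be compared. *Igf2* (-2.15) and *H19* (-2.17) were called lower in cluster 1 than in cluster 2, and *Cd44* (3.94) higher. Of all genes, 12.8% were called lower and 20.3% higher. *Igf2* was highest in cluster 0, at 37.0 UMIs per 10,000. Its levels were 10.7 in cluster 4, 10.5 in cluster 2 and between 1.06 and 2.35 in the other clusters, with cluster 1 at 2.35. Of 10 imprinted genes of fetal growth, which overlap this list in *Igf2* and *H19*, 9 were called lower in cluster 1 than in cluster 2, at a median of -2.14, where 12.8% of all genes were. In each of clusters 5 and 6, 9 were called lower than in clusters 0 to 2, where 22.8% and 24.1% of all genes were. In cluster 3, 7 were called lower and 0 higher, where 26.1% and 13.4% of all genes were. The 10 genes summed to 12.7 UMIs per 10,000 in cluster 1 and to less in clusters 3, 5 and 6 (10.5, 7.49 and 6.56). Clusters 2, 4 and 0 had 53.6, 72.1 and 108. Most of the imprinted genes and all 7 members were therefore lower in cluster 1 than in cluster 2. In cluster 5 the members divided, with *Lin28a*, *Igf2bp1*, *Igf2bp2* and *Hmga2* below the level of clusters 0 to 2 in every library. *Lin28b*, *Igf2bp3* and *Arid3a* were above that level in every library.

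The members were compared with one another and with all genes over the 21 combinations of cluster and library, as a description over groups that share libraries and depth. *Igf2bp1* and *Igf2bp2* were the most alike pair (Pearson's r = 0.882 on log2 levels), followed by *Igf2bp2* and *Hmga2* (0.877), and *Lin28a* and *Arid3a* the least (-0.208). *Lin28a* and *Lin28b* had 0.232. Among 12,856 genes with at least 200 UMIs, those with the pattern most like *Lin28a* were *Cul4b* (0.984), *Zfp428*, *Dgcr8*, *Slc25a4* and *Tyw3*. For *Lin28b* they were *Knl1* (0.976), *Ankle1*, *Parpbp* and *Haspin*, and for *Igf2bp1* they were *Skp2* (0.941), *Stmn1*, *Hddc2*, *Kif23* and *Paics*. *Igf2bp2* was closest to *Ppdpf* (0.960), *Fbln1*, *Stmn1*, *Ctxn1* and *Pcbp4*, and *Igf2bp3* to *Cbx5* (0.967), *Nt5dc2*, *Pclaf*, *Rhno1* and *Lmnb1*. *Hmga2* was closest to *Hoxa9* (0.958), *Scd2*, *Hoxa7*, *Caprin1* and *Zc3hav1l*, and *Arid3a* to *Nudt16l1* (0.925), *Dnmt3b*, *Uqcrc1*, *Limd2* and *Srp72*.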

How the data were processed

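UMI counts per Ensembl gene and cell were deposited by the authors without normalization, from 10x Genomics 3′ v3 libraries processed with Cell Ranger 3.1.0 on mm10 and aggregated with batch-effect removal. The gene annotation is not given in the sources used here. A second table deposited by the authors gives each count scaled to 10,000 UMIs per cell, plus 1, as a natural log. The member values recomputed from the counts differed from it by at most 5.1e-15. Leiden cluster numbers were taken as deposited. Doublets had been removed per the study's methods.

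Genes were named from GENCODE release M21 (27,645 of 27,998 rows), and counts of 4 repeated names were summed. The 7 genes and all gene lists were chosen with earlier results of these data known. Values are sums of UMIs per cluster and library. Shares and splits used 5,000 UMIs drawn per cell (seed 1). Named are the 7 members, up to 4 genes of a list with the largest ratios, and the 5 genes most alike to each member on log2(level + 0.01), of which 1 is not reported here. Genes named as markers of a cluster were chosen after their values had been seen. Scripts were tested on simulated data. Sequences come from RefSeq (GRCm38.p6) and GENCODE transcripts. Python 3.11.15, numpy 2.4.6 and scipy 1.17.1 were used.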

Additional observations from a re-analysis of the deposited data

How the results depend on the processing

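The direction of every called ratio of the 7 genes was kept under all alternatives run, and leaving out the 26 cells whose barcodes occur in more than 1 library, an alternative added after the data were seen, changed no call. The 7 genes called lower in cluster 1 than in cluster 2 were called under every alternative except the 4-fold threshold, which left 6. The number of all genes called lower, cluster 1 against 2, was 1,701, and became 2,823 at 1.5-fold and 652 at 4-fold. Other counts moved as follows. In cluster 0 against 2, the number called lower, 1, became 2 at 1.5-fold and 0 at 4-fold. In cluster 3 the number lower, 3, became 5 and 1. In cluster 4 the number higher, 0, became 3 at 1.5-fold and 1 without the 5% of cells with the most UMIs. In cluster 5 the number lower, 2, became 0 at 4-fold and 1 both under the scaling without the 100 most abundant genes and without the 5% of cells with the most UMIs. In cluster 6 the number lower, 4, became 2 at 4-fold, and in cluster 5 against 6 the number higher, 2, became 5 at 1.5-fold and 0 at 4-fold. With each library left out in turn, the counts ranged from 0 to 1 for cluster 0 against 2 (lower), 0 to 1 for cluster 4 (higher) and 1 to 2 for cluster 5 (lower). At 4-fold and 1.5-fold the threshold itself makes the change, and for the others the cause was not tested. Levels of *Lin28a* in cluster 1 rest on 6 UMIs, and its range between clusters 3 and 1 was 38.3-fold without library suffix 1 and 98.8-fold as a mean over cells of the deposited normalized values. The lowest cluster for *Hmga2* was 3 without suffix 2 and 6 without suffix 3, and for *Igf2bp2* it was 6 without suffix 3. Of the shares of positive cells, 44 of 49 moved beyond their interval at 5,000 UMIs per cell. Ratios were taken within each library as well as over all cells. No paired test across the libraries was run, because the clusters had been made from these counts and the library suffixes could not be mapped to labelled samples.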

Other observations

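The embryonic globins *Hbb-bh1*, *Hbb-y* and *Hba-x*, markers of primitive and fetal erythroid gene use, followed the library more than the 7 fetal genes did. Their summed level in cluster 5 was 28.1 and 31.9 UMIs per 10,000 in library suffixes 1 and 2 and 0.240 in suffix 3, and in cluster 6 it was 45.4, 34.1 and 0.617. In the same libraries the 7 fetal genes summed to 6, 8.05 and 6.75 in cluster 5 and to 2.93, 4.07 and 3.62 in cluster 6. Cluster 0 had 0.401, 21.6 and 0.635 for the globins. The adult globins (*Hba-a1*, *Hba-a2*, *Hbb-bs* and *Hbb-bt*) summed to 3.70, 16.6 and 0.256 in cluster 1 and to 4.29, 5.08 and 0.726 in cluster 5. *Bcl11a*, a repressor of embryonic globins, had a level of 0.615 UMIs per 10,000 in cluster 5 and of 0.0214 in cluster 1. Near-identical adult globin copies share reads, so that their values are uncertain one by one.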
